A study of Homo sapiens with 6 samples.

Results

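The genes described here are 38 members of the HOXA, HOXB and HOXC clusters, their long noncoding transcripts and the MEIS and PBX cofactors. The arrays held a named probe set for 19775 genes in all. The 38 members were chosen by gene family and not by a cut on their values, though with earlier results of these data known. Each gene is represented by its probe set with the highest mean signal over the 6 arrays. A probe set that carried the member's symbol and no other was found for 28 of the 38, with 44 probe sets in all. The other 10, namely HOXA3, HOXA4, HOXA5, HOXA6, HOXA7, HOXA9, HOXA10, HOXA11, HOXA13 and HOTAIRM1, were not analysed here, so the HOXA cluster is represented by HOXA2 and by the long noncoding transcript HOTTIP.

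The RNA came from U87-2M1, a subline of the U87 human glioblastoma line described in the labels as invasive, which was obtained through an experimental lung metastasis assay in animals and then grown in culture. The first group of 3 arrays came from cells given a baculoviral vector with a miR-10b decoy, and the other 3 from cells given the same type of vector with a control decoy. A decoy is a transcript built to bind a microRNA and hold it away from its targets. All 6 samples came from passage 4 cells maintained in hypoxia, so hypoxia and baculoviral transduction were common to both groups, and both rest on this single subline. The labels do not say whether replicates were separate cultures, so a p-value reflects only how much these arrays scatter, and that scatter may be technical.

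HOX genes encode homeodomain transcription factors that give cells their position along the body axis, and they lie in 4 clusters in which the order on the chromosome follows the order of expression along the axis. HOX proteins bind DNA weakly by themselves and gain affinity and specificity by pairing with PBX and MEIS proteins, which belong to the TALE class of homeodomain factors. In glioblastoma, HOX genes are often switched on although adult brain expresses few of them. The clusters also encode microRNAs. miR-10b is encoded in the HOXD cluster and its sister miR-10a in the HOXB cluster, and miR-10 has been reported to repress HOXB1 and HOXB3 homologues in zebrafish.

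MicroRNAs of the miR-10 and miR-196 families that are encoded within the HOXA, HOXB and HOXC clusters are shown because they sit among the genes measured here, with bases 2 to 8, the seed that pairs with targets, in capitals. Their own levels were not measured on these arrays. The mature miR-10a-5p comes from chr17:48579904-48579926 (GRCh38.p14, minus strand), between HOXB4 and HOXB5 in gene order. The miR-196 family comes from chr17:48632532-48632553 on the minus strand, between HOXB9 and HOXB13, from chr12:53991762-53991783 on the plus strand, between HOXC9 and HOXC10, and from chr7:27169528-27169549 on the minus strand, between HOXA9 and HOXA10. The copies in HOXB and HOXC give the same mature miR-196a-5p, and miR-196b-5p has the same seed as miR-196a-5p, while miR-10a-5p has a different seed. MIR615, which lies between HOXC5 and HOXC6, belongs to neither family and is not shown. The sequences are from RefSeq, and miR-10b-5p is named only.
hsa-miR-10a-5p: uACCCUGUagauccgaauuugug
hsa-miR-196a-5p: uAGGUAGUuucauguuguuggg
hsa-miR-196b-5p: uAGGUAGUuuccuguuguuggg

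The deposited values are linear signal intensities. After trimming 2% of probe sets at each end, the mean deposited signal was between 155 and 163 on 5 arrays and 192 on control decoy replicate 3, so the arrays were quantile-normalized, and signals below are normalized signals. Log2 differences are those of log2(signal + 7), miR-10b decoy minus control decoy, which understates the change of dim genes. The words higher, lower, rose and fell are kept for genes with an adjusted p under 0.05 in limma's test over 13842 genes, and a signal of 15.5, the 30th percentile of all genes, is the filter level under which a gene was not tested. Across tested genes, r was 0.985 to 0.987 within a group and 0.967 to 0.973 between the groups. As a check of the label, the glial markers GFAP, S100B and AQP4 lay under the filter level on all 6 arrays, as did 5 of the 9 glial and neural markers by their mean, and these 9 summed to signals of 596 to 679.6 with the miR-10b decoy and 612 to 652 with the control decoy. Single markers moved both ways within that sum: BCAN (1.18) and SLC1A3 (0.73) were higher and NES (-0.38) was lower. NES was the largest part of the sum, at 330 to 411 with the miR-10b decoy and 448.5 to 511 with the control decoy. OLIG2, under the filter level by its mean, was not tested in the reported setting. It had 19.6, 19.6 and 29.8 with the miR-10b decoy and 0.805, 5.21 and 7.75 with the control decoy, a difference of 1.40. The BCAN value is that of its brightest probe set, and its other probe sets had differences of 0.25, 0.42 and -0.63. The 6 mesenchymal markers, vimentin among them, were all above the filter level. They summed to 32578 to 33449 with the miR-10b decoy and 35999 to 37925 with the control decoy, with COL1A2 (-0.79), SPARC (-0.63) and FN1 (-0.13) lower. The part of these markers in the differences below was not tested. The 6 epithelial markers with a probe set, 3 of them under the filter level, summed to 125 to 134.5 with the miR-10b decoy and 120.2 to 160.5 with the control decoy.

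Of the 28 members with a probe set, 16 were tested and 12 lay under the filter level, and among the 16 the anterior genes HOXB2 and HOXB3 and the thoracic gene HOXC6 rose with the miR-10b decoy while the cofactors MEIS1 and MEIS2 fell. The 3 members that were higher were 18.8% of those tested, against 16.6% of all tested genes, and the 2 that were lower were 12.5%, against 17.3% of all. In either direction 34.0% of all tested genes were called, against 5 of the 16 members, so the share of members called was near the background. The median log2 difference of the 16 was -0.09, against -0.02 over all tested genes. In 10 of the 16 the arrays of the groups did not overlap, which was also true of 46.4% of all tested genes. In RNA from whole cultures, a change in the share of cells that express a gene and a change in RNA per cell cannot be told apart. For actin, the ratio of 3' to 5' probe signal, which rises as RNA degrades, was 10.6, 7.36 and 7.68 with the miR-10b decoy, against 6.22, 5.27 and 5.69 with the control decoy, while that of GAPDH was 0.943 ± 0.007 and 0.945 ± 0.019 (SD, n = 3 each). Its part in the differences below was not tested.

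**Figure D1:**
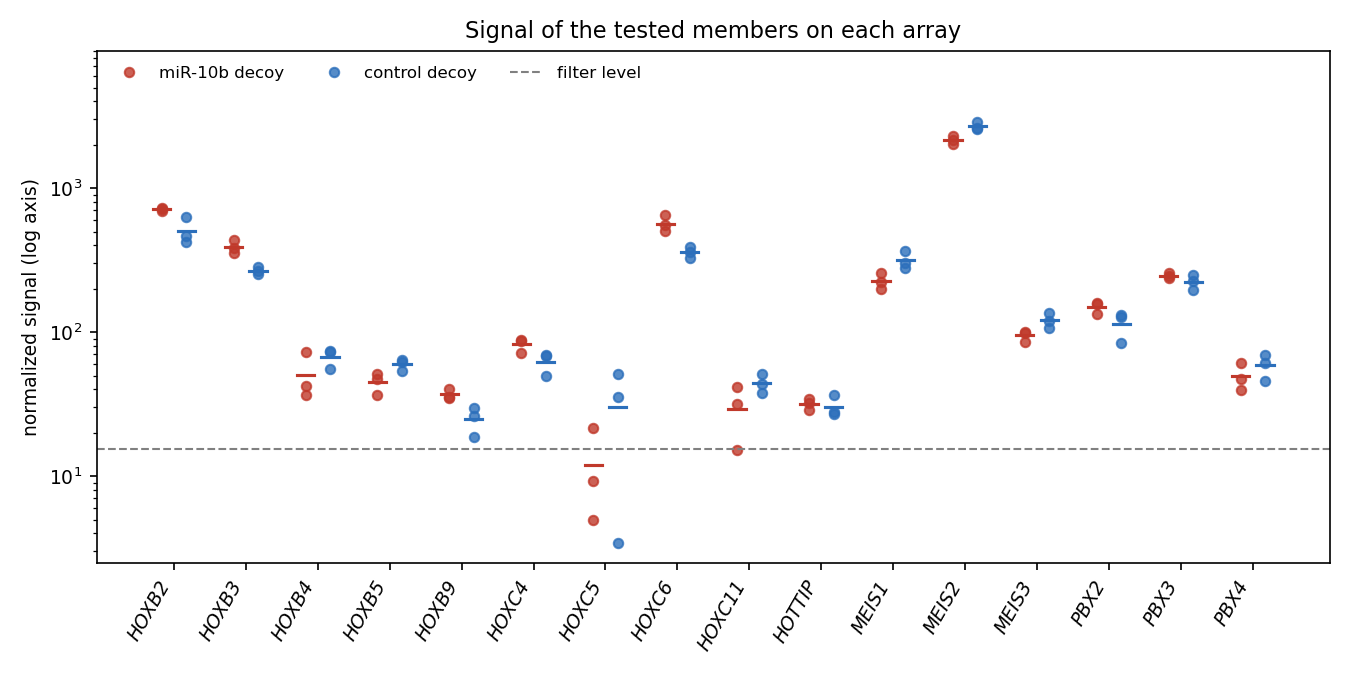
Normalized signal on a log axis for the 16 tested members, with the 3 miR-10b decoy arrays (red, left) and the 3 control decoy arrays (blue, right) as points and each group's mean as a short bar. The red points of HOXB2, HOXB3 and HOXC6 all lie above the blue ones, those of MEIS1 and MEIS2 all below, and the dashed line is the filter level of 15.5.

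In the HOXB cluster, HOXB2, a gene that patterns the hindbrain, had signals of 725, 717 and 693 with the miR-10b decoy, against 636, 422 and 465 with the control decoy. All miR-10b decoy arrays lay above all control arrays, and the spread was wider among the controls. HOXB2 rose by 0.50 on the log2 scale (SE 0.12, limma adjusted p = 0.0074). Its call ended when the variance was estimated without the intensity trend (adjusted p = 0.061) and without moderation across genes (adjusted p = 0.128). HOXB3, its neighbour, which acts in the hindbrain and in blood progenitors, had 357, 384 and 438 with the miR-10b decoy, against 282.5, 266 and 253 with the control decoy. The groups were well apart, and HOXB3 rose by 0.54 (SE 0.09, limma adjusted p = 0.000998). The other HOXB3 probe set lay close to the filter level, with signals of 15.0, 25.2 and 4.27 with the miR-10b decoy and 18.4, 29.1 and 22.9 with the control decoy, and had a log2 difference of -0.59. With the mean of both probe sets the HOXB3 difference was -0.03 (adjusted p = 0.932), so the call rests on the brighter probe set. HOXB-AS1, an antisense transcript whose annotated span overlaps those of HOXB2 and HOXB3, had a log2 difference of -0.12 (SE 0.16, limma adjusted p = 0.603). Its signals were 81.6, 64.2 and 59.3 with the miR-10b decoy and 71.9, 80.8 and 70.3 with the control decoy, so the groups overlapped. Its other probe set had 36.5, 37.5 and 41.4 with the miR-10b decoy and 51.5, 52.5 and 61.2 with the control decoy, a difference of -0.45 with no overlap.

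The tested HOXB genes that follow HOXB3 in gene order did not pass. HOXB4 and the miR-10a gene lie within the annotated span of HOXB3, so signals of HOXB3 and HOXB4 may not be fully separate. HOXB4, which supports blood stem cells and lies beside the miR-10a gene, had 42.4, 36.8 and 72.7 with the miR-10b decoy, against 55.7, 72.3 and 73.7 with the control decoy. The third miR-10b decoy array stood with the controls, the difference was -0.41 (95% interval -0.90 to 0.09, limma adjusted p = 0.198), and without that array it was -0.66 (adjusted p = 0.032). HOXB5 had a difference of -0.37 (95% interval -0.76 to 0.03, limma adjusted p = 0.145), with 36.6 to 51.4 in miR-10b decoy cells and 53.4 to 63.7 in control cells, and its other probe set gave 0.48. The brighter HOXB5 probe set carries the suffix for possible cross-hybridisation. HOXB9, a gene of the trunk, had signals of 35.5, 40.5 and 35.0 with the miR-10b decoy, against 29.9, 18.7 and 26.0 with the control decoy. These arrays did not overlap, yet the difference of 0.48 did not pass (95% interval -0.04 to 1.0, limma adjusted p = 0.144). The other HOXB genes, HOXB1, HOXB6, HOXB7, HOXB8 and the prostate-expressed HOXB13, lay under the filter level. HOXB1, the other zebrafish miR-10 target named above, had 4.6, 16.2 and 18.0 with the miR-10b decoy and 8.43, 10.3 and 3.81 with the control decoy. The groups overlapped, and HOXB1 was tested only in the setting with no filter, where it did not pass.

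**Figure D2:**
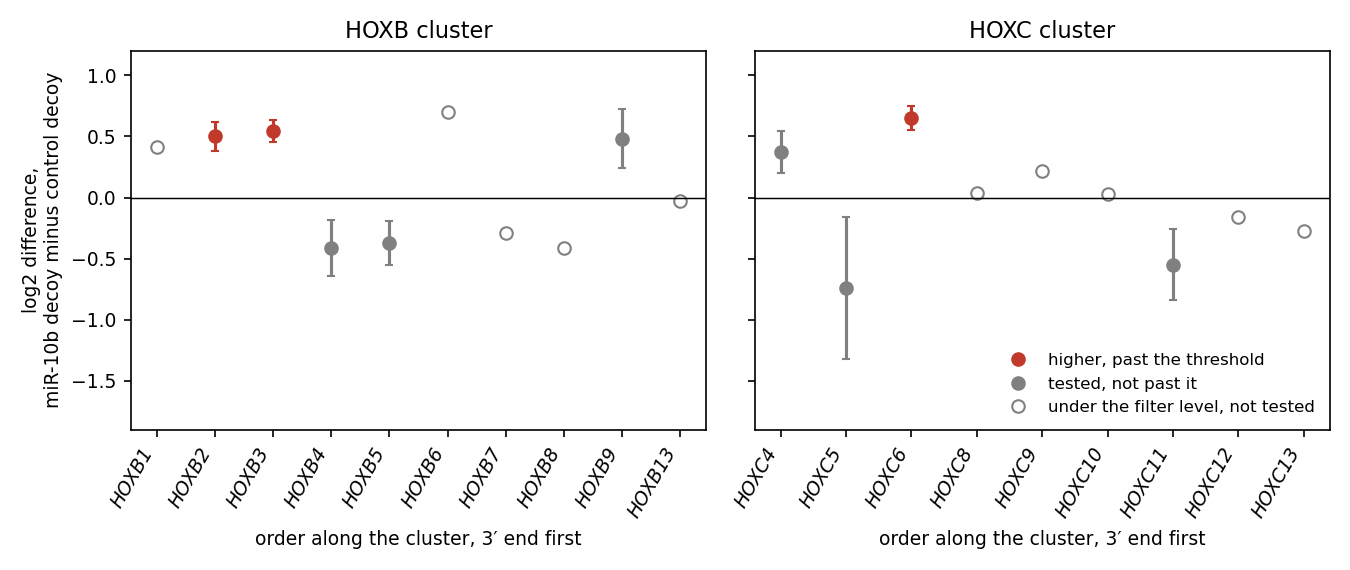
Log2 difference (miR-10b decoy minus control decoy) of HOXB and HOXC genes in their order along the cluster, with the 3' end, which is expressed first and most anteriorly, on the left. Red points with SE bars are HOXB2, HOXB3 and HOXC6, which were higher, grey filled points were tested and did not pass, and open points lay under the filter level and were not tested.

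In the HOXC cluster, HOXC6, which patterns the thoracic region, had signals of 652, 500.3 and 552 with the miR-10b decoy, against 362, 388 and 326 with the control decoy. Every miR-10b decoy array was above every control array, and HOXC6 rose by 0.65 (SE 0.10, limma adjusted p = 0.00056), the one member called under each of the 19 alternative settings (differences from 0.54 to 0.74, adjusted p from 0.000169 to 0.0426). Its probe set has the suffix for a sequence shared by several transcripts. HOXC4, HOXC5 and HOXC6 have the same annotated start in RefSeq, so their transcripts overlap and their signals may not be fully separate. HOXC4 had 87.6, 87.1 and 72.0 with the miR-10b decoy, against 49.9, 68.1 and 69.5 with the control decoy. The groups did not overlap, but the highest control was close to the lowest miR-10b decoy array, and the difference of 0.37 did not pass (95% interval 0.01 to 0.73, limma adjusted p = 0.108). HOXC5 was dim and uneven, with 9.25, 21.6 and 4.94 in miR-10b decoy cells, whose mean lay under the filter level, and 3.43, 51.2 and 35.7 in control cells. Control replicate 1 stood far below the other controls, and the difference of -0.74 (SE 0.58, limma adjusted p = 0.364) became -1.49 without that array (adjusted p = 0.020).

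The window that HOXC4 and HOXC5 share in the RefSeq promoter table is shown because it is the annotated start from which the HOXC4, HOXC5 and HOXC6 transcripts overlap. It covers chr12:54016638-54016937 on the plus strand of GRCh38.p14, from 250 bases before to 50 bases after the start. Windows were searched on both strands for TGACAG, the core bound by MEIS proteins, and for TGATNNAT, the composite site bound by PBX and HOX proteins together. Matches are in capitals, and this window held neither motif.
HOXC4 and HOXC5: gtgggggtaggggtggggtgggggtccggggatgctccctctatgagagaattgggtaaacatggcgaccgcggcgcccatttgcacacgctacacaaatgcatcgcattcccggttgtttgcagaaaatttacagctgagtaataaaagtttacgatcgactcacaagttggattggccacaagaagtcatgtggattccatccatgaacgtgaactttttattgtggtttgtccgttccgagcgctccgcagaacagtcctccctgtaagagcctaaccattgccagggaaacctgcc

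Further along the cluster HOXC11, which acts in the posterior trunk and hindlimb, had 15.3, 41.3 and 31.7 with the miR-10b decoy, against 37.7, 43.6 and 50.9 with the control decoy. The first miR-10b decoy array was low and the groups overlapped, and the difference was -0.55 (95% interval -1.17 to 0.07, limma adjusted p = 0.164). HOXC8, HOXC9, HOXC10, HOXC12 and HOXC13, the last a regulator of hair keratins, were under the filter level. HOXA2, the one HOXA gene with a named probe set, was under it too, with signals from 2.68 to 18.4 with the miR-10b decoy and 3.32 to 14.2 with the control decoy. The 12 members under the filter level made up 42.9% of those with a probe set. Of these, 6 lay under it on all 6 arrays, and the other 6, which were HOXA2, HOXB1, HOXB6, HOXB7, HOXC8 and HOXC10, exceeded it on at least 1 array. With no filter all 28 were tested and the same 5 genes passed.

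The long noncoding transcripts of the clusters showed no called difference. HOTTIP, transcribed from the posterior end of the HOXA cluster and known to bring the WDR5 complex to HOXA genes, had signals of 28.6, 32.4 and 34.4 with the miR-10b decoy, against 27.7, 27.1 and 36.4 with the control decoy. The groups overlapped, with a log2 difference of 0.06 (95% interval -0.44 to 0.55, limma adjusted p = 0.872) whose sign changed with the scaling. HOTAIR, transcribed from the HOXC cluster and known for binding the Polycomb complex PRC2, lay under the filter level on all arrays, with 6.09, 8.44 and 6.23 in miR-10b decoy cells and 1.22, 4.02 and 1.99 in control cells. The miR-10b decoy arrays were the higher ones and the groups did not overlap, but HOTAIR was tested only with no filter, where it did not pass. Among 12 other noncoding transcripts of the loci, 6 had a probe set and 3 were tested, with 0 higher and 0 lower (limma, adjusted p from 0.214 to 0.688, and 0 with an unadjusted p under 0.05). These calls rest on the brightest probe set of each. For HOXB-AS3 that one had a difference of -0.57, while another had 19.7, 27.8 and 25.1 with the miR-10b decoy and 4.05, 8.52 and 4.16 with the control decoy, a difference of 1.32 with the groups apart.

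**Figure D3:**
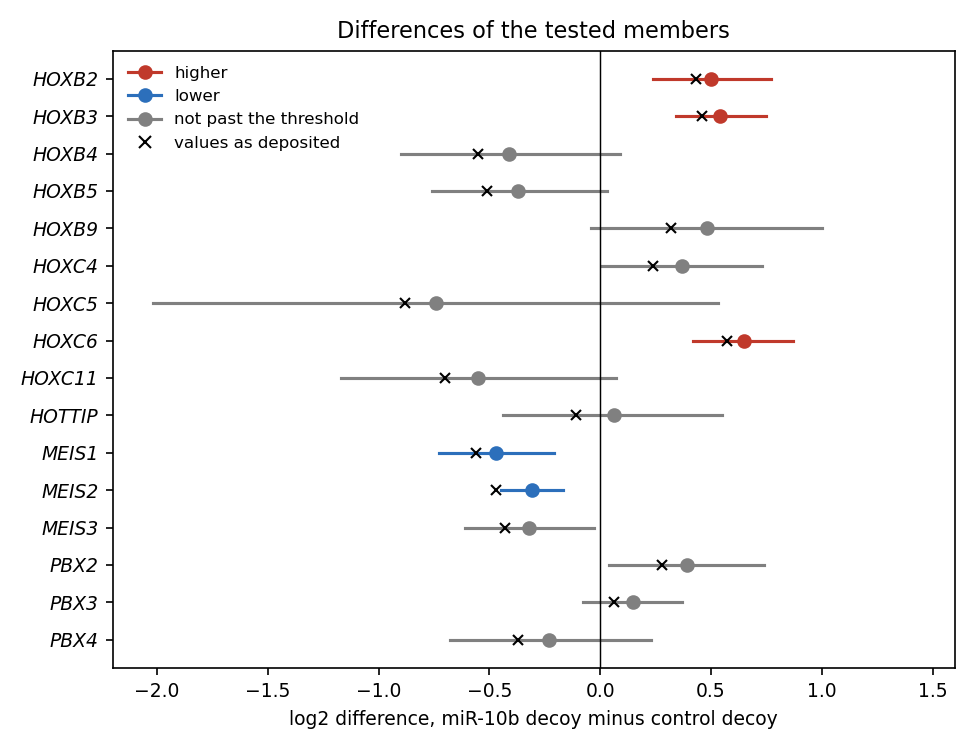
Log2 difference (miR-10b decoy minus control decoy) of the 16 tested members with 95% intervals, coloured by call, and crosses for the same difference in the values as deposited. Intervals of HOXB2, HOXB3, HOXC6, MEIS1 and MEIS2 exclude 0 by the widest margins, and the crosses lie to the left, as the median over all genes does (-0.14 as deposited against -0.02).

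Among the 6 cofactors, MEIS1 and MEIS2 fell and MEIS3, PBX2, PBX3 and PBX4 did not pass the test. MEIS1, the partner of HOXA9 in leukaemia, had signals of 256, 198 and 224 with the miR-10b decoy, against 280.5, 302 and 365 with the control decoy. All miR-10b decoy arrays were below all controls, and MEIS1 fell by 0.47 on the log2 scale (log2 difference -0.47, SE 0.12, limma adjusted p = 0.0101). The other MEIS1 probe set, with signals of 66.8, 68.2 and 51.6 in miR-10b decoy cells and 76.0, 49.8 and 74.4 in control cells, had a difference of -0.08. With the mean of both probe sets the difference was -0.27 (adjusted p = 0.147), and the call also ended without the intensity trend (adjusted p = 0.0525) and without moderation (adjusted p = 0.109). MEIS2, which acts in brain, limb and heart development, had 2168, 2314.5 and 2011 with the miR-10b decoy, against 2618.5, 2570.3 and 2870.4 with the control decoy. The groups were apart, and MEIS2 had a difference of -0.31 (SE 0.06, limma adjusted p = 0.00255), which passed in every setting but the one without moderation (adjusted p = 0.063). Its only probe set has the suffix for shared transcripts.

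MEIS3, which acts with hindbrain HOX genes, had signals of 100.5, 85.3 and 99.1 with the miR-10b decoy, against 119.6, 136 and 106 with the control decoy. The groups did not overlap, but the difference of -0.32 did not pass (SE 0.13, 95% interval -0.61 to -0.03, limma adjusted p = 0.0819). In the values as deposited it was -0.43 and passed (adjusted p = 0.049), where the median of all genes was -0.14. The other MEIS3 probe set, at signals of 35.7, 35.4 and 26.0 with the miR-10b decoy and 10.8, 24.0 and 34.5 with the control decoy, had the opposite sign at 0.46, and the mean of both gave 0.07 (adjusted p = 0.799). The brighter MEIS3 probe set carries the suffix for possible cross-hybridisation.

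The promoter windows of the cofactors that fell are shown to set their sequences side by side. MEIS1 has a window at chr2:66434875-66435174 on the plus strand, and MEIS2 has windows at chr15:37099057-37099356 and chr15:37098647-37098946 on the minus strand, all on GRCh38.p14. Of the 4 windows printed for HOXC4 and HOXC5, MEIS1 and MEIS2, only the second of MEIS2 held a motif, TGATTTAT, which starts 64 bases before the annotated start. TGACAG occurred in 15.8% and TGATNNAT in 7.4% of all 35116 windows of this length, no 2 matches overlapped in those printed, and a match is only a description of letters. The GC content was 58.3% for MEIS1 and 62.7% and 53.0% for the MEIS2 windows, against a median of 58.7% over all windows.
MEIS1: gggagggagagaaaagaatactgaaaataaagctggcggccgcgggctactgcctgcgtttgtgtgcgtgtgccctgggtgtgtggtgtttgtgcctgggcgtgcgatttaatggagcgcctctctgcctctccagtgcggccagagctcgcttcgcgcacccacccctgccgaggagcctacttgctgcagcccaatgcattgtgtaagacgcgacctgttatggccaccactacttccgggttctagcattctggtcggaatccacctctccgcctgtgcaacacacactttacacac
MEIS2, chr15:37099057-37099356: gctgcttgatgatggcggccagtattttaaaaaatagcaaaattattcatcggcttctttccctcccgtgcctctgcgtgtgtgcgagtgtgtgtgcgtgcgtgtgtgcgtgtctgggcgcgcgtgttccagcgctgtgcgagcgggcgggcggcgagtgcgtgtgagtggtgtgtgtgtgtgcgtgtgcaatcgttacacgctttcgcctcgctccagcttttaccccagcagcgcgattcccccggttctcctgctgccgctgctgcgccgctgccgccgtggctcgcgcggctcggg
MEIS2, chr15:37098647-37098946: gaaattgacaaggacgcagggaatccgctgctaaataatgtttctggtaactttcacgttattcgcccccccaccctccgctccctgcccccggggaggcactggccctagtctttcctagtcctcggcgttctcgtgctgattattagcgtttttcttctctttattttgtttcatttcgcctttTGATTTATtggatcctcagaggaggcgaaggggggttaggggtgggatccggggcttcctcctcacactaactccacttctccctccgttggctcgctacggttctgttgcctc

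PBX2, a widely expressed PBX protein, had signals of 156, 159 and 134 with the miR-10b decoy, against 131, 127 and 84.2 with the control decoy. The groups did not overlap, and the difference of 0.39 did not pass (SE 0.16, 95% interval 0.04 to 0.74, limma adjusted p = 0.0797). It passed after centring on the array median (0.45, adjusted p = 0.0464), and leaving out control replicate 1 gave 0.50 (adjusted p = 0.0484) but leaving out control replicate 3 gave 0.20 (adjusted p = 0.266), while 1 of its 3 other probe sets had the opposite sign, at -0.05. PBX3, a partner of HOXA9 and MEIS1 in leukaemia, had 247, 258 and 237 with the miR-10b decoy, against 198, 225 and 248 with the control decoy. The groups overlapped and the difference was 0.15 (95% interval -0.08 to 0.37, limma adjusted p = 0.304). PBX4 had 61.1, 47.5 and 39.4 with the miR-10b decoy and 69.5, 45.6 and 61.4 with the control decoy. Its groups overlapped as well, with a difference of -0.23 (95% interval -0.68 to 0.23, limma adjusted p = 0.44).

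**Figure D4:**
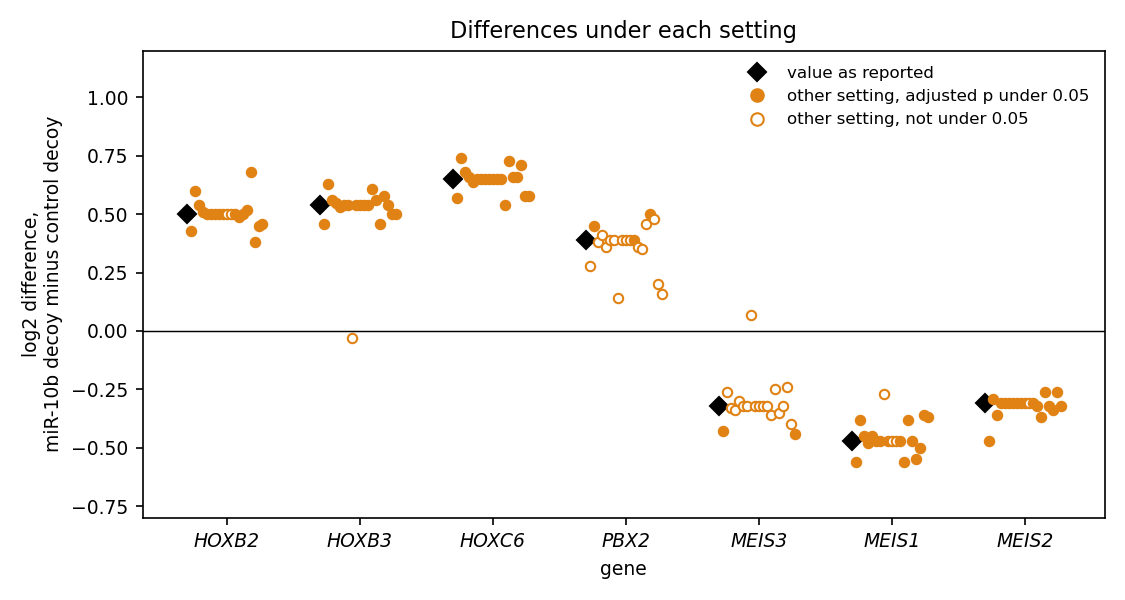
Log2 difference (miR-10b decoy minus control decoy) of 7 members under the reported setting (black diamond) and the alternatives (circles, filled where the adjusted p was under 0.05). HOXC6 is filled throughout, HOXB3 and MEIS3 each have a circle across 0, which is the mean of all probe sets, and PBX2 and MEIS3 are mostly open.

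In the values as deposited HOXB2, HOXB3 and HOXC6 were again higher and MEIS1, MEIS2 and MEIS3 lower, against 7.90% of all tested genes higher, 18.5% lower and 26.4% called in either direction there. After centring on the array median 4 members were higher, the same 3 and PBX2, and 2 were lower, the same 2. Of the 16 tested members, 7 had more than 1 probe set, and in 5 of these (HOXB3, HOXB5, HOTTIP, MEIS3 and PBX2) at least 1 other probe set had the opposite sign to the main one. HOXB9 and MEIS1 had probe sets of 1 sign.

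Genes around the HOX network were described from lists chosen with earlier results of these data known. In the HOXD cluster 2 of 7 tested genes were higher, against 16.6% of all tested genes, and 0 lower (limma, 0 lower also at an unadjusted p under 0.05). HOXD10, which patterns the posterior trunk and limb, had 55.5, 67.2 and 69.3 with the miR-10b decoy, against 16.5, 20.5 and 22.4 with the control decoy (log2 difference 1.41, SE 0.21, limma adjusted p = 0.000357). Its 2 other probe sets, both under the filter level on all arrays, had differences of 0.02 and -0.10, and averaging its probe sets gave 0.44, which did not pass (adjusted p = 0.222). HOXD9 had 36.7, 36.4 and 27.3 with the miR-10b decoy and 6.23, 26.0 and 6.30 with the control decoy. Its control mean lay under the filter level, so it was tested only through its miR-10b decoy arrays, and its call was lost under 10 of 18 alternatives, among them 5 of the 6 that leave out an array. Of 6 other TALE homeobox genes tested, 3 were higher and 0 lower in quantile-normalized values (limma, 0 lower also at an unadjusted p under 0.05). Over all tested genes 16.6% were higher and 17.3% lower. In the values as deposited 1 TALE gene of this list was higher, against 7.90% of all tested genes. With the mean of all probe sets it was also 1, against 10.7%. IRX3, an Iroquois factor of neural and metabolic tissue, had signals of 1835, 2134 and 2186.5 with the miR-10b decoy, against 993, 1006 and 1061 with the control decoy. The groups were far apart and IRX3 rose by 1.0 (SE 0.07, limma adjusted p = 1.91e-06). The PBX-binding factor PKNOX1 was higher at 0.26 (SE 0.09, limma adjusted p = 0.040), a call lost under 11 of 19 alternatives. The repressor TGIF2, the third, had 34.5, 15.2 and 27.6 with the miR-10b decoy and 7.20, 5.98 and 8.82 with the control decoy. All its control arrays lay under the filter level, so it too was tested only through its miR-10b decoy arrays, its call was lost under 5 of 16 alternatives, and its other probe set had a difference of -0.22.

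Among 14 tested regulators of HOX gene expression, 1 was higher, 2 were lower and 11 did not pass (median 0.09), against 16.6% higher and 17.3% lower over all tested genes. The number higher was 4 after centring on the array median, 3 without miR-10b decoy replicate 1 and 0 in the values as deposited. GMNN, the replication inhibitor geminin, which also binds HOX proteins, had signals of 438, 443 and 422 with the miR-10b decoy and 578, 607 and 657 with the control decoy, a difference of -0.49 (SE 0.07, limma adjusted p = 0.000393). The Polycomb subunit SUZ12 was higher at 0.33 (SE 0.07, limma adjusted p = 0.00514) and CBX2, another, lower at -0.76 (SE 0.24, limma adjusted p = 0.0277), although the mean of all CBX2 probe sets was 0.14. The CBX2 call was lost under 7 of 18 alternatives, among them leaving out miR-10b decoy replicate 3 (adjusted p = 0.097), control replicate 2 (0.116) or control replicate 3 (0.0723). The SUZ12 call ended in the values as deposited (adjusted p = 0.179), with the mean of all probe sets (0.079) and without moderation (0.063).

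Retinoic acid switches on anterior HOX genes, and of 10 tested genes of its receptors and metabolism 5 were higher, 2 lower and 3 did not pass (median 0.42), against 34.0% of all tested genes called in either direction. The values as deposited gave 4 higher and 2 lower, and the mean of all probe sets 2 higher and 1 lower. DHRS3, a retinaldehyde reductase, had signals of 447, 388 and 452 with the miR-10b decoy, against 242, 241 and 259 with the control decoy. Its groups were far apart, with a difference of 0.78 (SE 0.09, limma adjusted p = 5.56e-05). CYP26B1, which degrades retinoic acid, was higher at 0.49 (SE 0.06, limma adjusted p = 0.000132) and ALDH1A3, which makes it, at 0.36 (SE 0.05, limma adjusted p = 0.000132), though with the mean of all probe sets neither passed (CYP26B1 0.40, adjusted p = 0.188, and ALDH1A3 -0.24, adjusted p = 0.271), and ALDH1A3 did not pass as deposited. The receptors RARA and RXRA were also higher, and the receptor RARB and the retinoic acid binding protein CRABP2 lower. Of these 4, named after their values were seen, RARA had a difference of 0.94 (SE 0.17), RXRA of 0.61 (SE 0.17), RARB of -0.64 (SE 0.13) and CRABP2 of -0.40 (SE 0.09). With the mean of all probe sets RXRA was at 0.12 (adjusted p = 0.556) and RARB at -0.27 (adjusted p = 0.266). RXRA also lost its call without control replicate 3 (adjusted p = 0.0582), without the intensity trend and without moderation, and RARB without moderation. Whether retinoic acid had a part in the differences of the HOX genes was not tested.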

How the data were processed

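Gene expression was measured in 6 samples, 3 with a miR-10b decoy and 3 with a control decoy, from 0.25 µg of total RNA each, per the labels' protocols. The deposited values are linear signal intensities for 54675 probe sets, made with MAS5 per the submitters' processing notes. No version or scaling target is stated, and no detection calls were used.

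Probe sets with 1 gene symbol in the platform annotation (41091, control probe sets left out) covered 19775 genes. Here log2(signal + 7) was quantile-normalized over all probe sets, because 1 control array was brighter than the rest. The probe set with the highest mean deposited signal stood for each gene, and 13842 genes at or above a mean normalized signal of 15.5 (the 30th percentile) were tested. Groups were compared with limma 3.58.1 (R 4.3.3; lmFit, eBayes with an intensity trend, 7.67 prior and 4 residual degrees of freedom), two-sided, with Benjamini-Hochberg adjustment over all tested genes and a threshold of 0.05. The script was tested on simulated data. The number of arrays limits the precision.

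The members, lists, scaling and tests were chosen with earlier results of these data known. All members are accounted for. By rule, the value on each array is given for members past the threshold in normalized or deposited values and for the brightest member of each cluster and of the cofactors. Most other tested members are given likewise, and at most 3 genes with the smallest p of each accompanying list are given with values, plus any that a count of 5 or fewer called for. RefSeq tables (GRCh38.p14) served for sequences, names and gene order. Of the 38 members, 19 had a promoter window there.

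The alternatives were the values as deposited, centring on the array median, scaling to a common trimmed mean, offsets of 1 and 16, no filter, a filter at the 50th percentile, the mean of all probe sets, each probe set by itself, no intensity trend, no moderation, the replicate number as a block and each array left out. The values as deposited without control decoy replicate 3 were added after the data were seen.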

Additional observations from a re-analysis of the deposited data

How the results depend on the processing

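HOXC6 kept its direction and its call under all 19 alternatives, and HOXB2, MEIS1 and MEIS2 kept their direction. Members called higher numbered 3, or 2 to 4 under the alternatives, and those called lower 2, or 0 to 3. They were 1 lower with the mean of all probe sets and 1 without the intensity trend, and 0 without moderation, where limma's unmoderated test had MEIS1 and MEIS2 lower at an unadjusted p under 0.05 (2 members) and called HOXB3 and HOXC6 higher. Leaving out each array gave 3 to 4 members higher and 2 to 3 lower. Among all tested genes 2303 were higher and 2399 lower, against 1094 higher and 2561 lower in the values as deposited and 2866 and 1737 after centring on the array median. With the mean of all probe sets these were 1483 and 1567, with every probe set by itself 3530 and 3628 (more features tested), without moderation 1454 and 1377, and with 1 array left out 1874 to 2157 and 1832 to 2146. Without control decoy replicate 3 the values as deposited gave 1903 higher and 2094 lower, with 3 members in each direction.

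Signs that turned were those of HOXB3 (-0.03), HOXB5 (0.05), MEIS3 (0.07), CBX2 (0.14), ALDH1A3 (-0.24) and HOTTIP (-0.14) with the mean of all probe sets, and of HOTTIP also as deposited (-0.11), with trimmed mean scaling (-0.02) and on leaving out control decoy replicate 2 (0.00; 0.00 to 0.17 over the 6 arrays). The cause was not tested. Same-numbered arrays of the groups did not deviate together (r of 0.029, -0.027 and -0.011), and not every array correlated best with its own number. With the replicate block 4 members were higher, PBX2 among them (adjusted p = 0.0375), 2 were lower, and 2226 genes were higher and 2336 lower. The filter level is a percentile of signal and not a measured background, so members under it, among them HOXA2, HOXB1 and HOTAIR, were not shown to be absent. They were left untested in the reported setting, and with no filter they were tested and did not pass.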

Other observations

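Probe sets of 2 activators of HOX gene expression differed in the size of their difference, and those of KMT2A also in sign. They are given here as values with no test, chosen after they were seen. For KMT2A, the MLL histone methyltransferase that keeps HOX genes active, the brightest of 11 probe sets had normalized signals of 215, 216.5 and 211 with the miR-10b decoy, against 195, 195 and 179 with the control decoy, a log2 difference of 0.17. In 5 of the 11 every miR-10b decoy array lay above every control array, and in 0 every one lay below, while 3 of the 11 were under the filter level on all arrays. Among all tested genes, each with 1 probe set, 46.4% had groups that did not overlap. That share counts both directions and leaves out genes under the filter level, so it is not a like comparison for these counts. One of the 5 that lay above had 52.5, 46.4 and 47.5 with the miR-10b decoy, against 22.4, 23.9 and 17.7 with the control decoy, a difference of 0.98. The rest of the 5, apart from the brightest, had differences of 1.07, 1.06 and 0.74. KMT2A probe sets outside these 5 had differences from -0.38 to 0.41.

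KDM6B, the histone demethylase JMJD3 that removes the Polycomb mark, had a difference of 0.25 on its brightest probe set. A dimmer probe set had signals of 44.8, 53.4 and 66.3 with the miR-10b decoy, against 3.59, 5.17 and 4.18 with the control decoy, where all controls lay under the filter level. Another had 55.7, 44.9 and 32.7 with the miR-10b decoy and 8.18, 8.81 and 13.3 with the control decoy, while the other two had differences of 0.36 and 0.38. In 3 of its 5 probe sets the miR-10b decoy arrays lay above all controls. The share of 46.4% over all tested genes, which counts both directions, is not a like comparison here either.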
